A study of Homo sapiens with 2 samples.

Results

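The interleukin-6 (IL-6) family of cytokines and its gp130 receptors was followed through 10 genes in SUM-159, a human breast cancer cell line of the triple-negative type. They were taken by name, 5 ligand genes (IL6, LIF, IL11, CLCF1 and OSM) and 5 receptor chain genes (IL6ST, LIFR, OSMR, IL6R and IL11RA), and all 10 were found among the 60880 rows of the deposited table. One RNA sequencing library was labelled PD-L1L2-SE deficient, after a super-enhancer tied to PD-L1 and PD-L2 in the title of the study, and 1 was labelled sgVector, the control. Both groups share the parent line, and no other treatment is labelled. The sources used here do not say whether the deficient cells were 1 clone or a pool. With 1 library per group no difference has a replicate check and no p-value is given. Intervals are 95% intervals of read counts and cover counting error only.

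Cytokines of this family act through gp130, the signal-transducing chain encoded by IL6ST. IL-6 and IL-11 first bind their own chains, encoded by IL6R and IL11RA, whereas LIF, oncostatin M (OSM) and CLCF1 signal through gp130 paired with the LIF receptor (LIFR) or, for oncostatin M, also with the oncostatin M receptor (OSMR). The paired chains activate JAK kinases and the transcription factor STAT3. In breast cancer cells IL-6 and LIF are known as secreted factors that can act back on the cell that makes them.

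The DNA just before the gene starts is shown for the ligand gene with the highest level and for the receptor genes with the largest differences or levels, as the stretch in which factors known to control cytokine genes bind. RefSeq (GRCh38.p14) gave promoters for 7 of the 10 genes, and LIF, CLCF1 and OSM had no entry. Each line gives the 250 bases before an annotated start, 5′ to 3′ on the gene's strand. Capitals mark matches on either strand to GGANTTTCC (NF-kB), TGANTCA (AP-1), TTGCNNAA (C/EBP), TTCNNNGAA (STAT) or TTCNNTTTC (interferon response element). No match shown overlaps another.
IL6, chr7:22726950-22727199, plus strand: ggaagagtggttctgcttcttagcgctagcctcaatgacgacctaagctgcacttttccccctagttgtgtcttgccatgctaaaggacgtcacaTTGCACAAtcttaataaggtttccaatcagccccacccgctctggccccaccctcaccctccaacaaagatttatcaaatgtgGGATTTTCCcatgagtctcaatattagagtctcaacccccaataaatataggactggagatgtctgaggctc
IL6ST, chr5:55994964-55995213, minus strand: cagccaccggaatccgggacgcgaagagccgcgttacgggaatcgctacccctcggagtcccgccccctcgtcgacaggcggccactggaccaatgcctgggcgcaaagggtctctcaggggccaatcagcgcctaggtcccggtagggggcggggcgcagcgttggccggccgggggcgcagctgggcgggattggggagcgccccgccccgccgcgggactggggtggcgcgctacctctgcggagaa
LIFR, chr5:38595406-38595655, minus strand: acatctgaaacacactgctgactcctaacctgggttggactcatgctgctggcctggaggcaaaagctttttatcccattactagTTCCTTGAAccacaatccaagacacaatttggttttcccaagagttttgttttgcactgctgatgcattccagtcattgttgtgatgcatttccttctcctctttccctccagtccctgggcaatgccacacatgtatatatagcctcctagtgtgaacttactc
OSMR, chr5:38845762-38846011, plus strand: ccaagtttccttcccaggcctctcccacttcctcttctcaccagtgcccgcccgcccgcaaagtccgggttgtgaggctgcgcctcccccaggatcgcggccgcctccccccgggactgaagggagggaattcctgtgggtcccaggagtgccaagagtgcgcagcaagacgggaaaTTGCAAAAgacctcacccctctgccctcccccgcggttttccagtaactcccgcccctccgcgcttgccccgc

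The IL6 stretch held an NF-kB match 72 to 64 bases before the start, and a C/EBP match 155 to 148 bases before it. Among all 35116 RefSeq promoter windows of this length, 1.45% held the NF-kB sequence and 9.05% the C/EBP sequence. The IL6ST stretch held none of the 5 sequences and had a GC content of 73.6%. LIFR has 3 annotated starts. The farthest upstream, shown here, held a STAT match 165 to 157 bases before the start, the second a STAT and a C/EBP match, and the third, of 83.6% GC, held none. OSMR held a C/EBP match 73 to 66 bases before its start. The STAT sequence was present in 6.57% of windows, the AP-1 sequence in 6.57% and the interferon response sequence in 6.88%. IL11 held an AP-1 match 96 to 90 bases before its start, and IL6R and both IL11RA starts held no match. These matches describe the letters only. Which LIFR or IL11RA start was used cannot be read from values summed over a gene.

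The libraries had 16381546 reads on genes in the PD-L1L2-SE deficient cells and 16206675 in the sgVector cells. CD274 (PD-L1) had 47 reads in deficient cells against 477 in sgVector cells, and PDCD1LG2 (PD-L2) 46 in deficient cells against 204 in sgVector cells, so the values of both genes went with the labels. Markers of mesenchymal-like breast cancer lines were abundant in both libraries, with 10 of 10 past a mean of 1 RPKM, among them VIM at 390 RPKM in deficient cells against 746 RPKM in sgVector cells. Of 10 luminal or epithelial markers 5 passed that mean, KRT8, KRT18, ERBB2, GATA3 and FOXA1, while ESR1, PGR, EPCAM, CDH1 and KRT19 had at most 6 reads in either library. Over all 10, summed RPKM was 48.6 in deficient cells and 57.2 in sgVector cells, and 0 of the 5 that passed were past 2-fold. Of all genes past that mean, 3.03% were at least 2-fold higher in deficient cells and 4.69% lower. Of 12 leukocyte markers, only CD14 passed that mean (476 reads in deficient cells against 337 in sgVector cells), and PTPRC had 0 reads in deficient cells against 4 in sgVector cells. Over all 12, summed RPKM was 15.6 in deficient cells and 11.6 in sgVector cells. Of 9 fibroblast markers 4 passed, PDGFRA, PDGFRB, DCN and COL1A1, while LUM and COL1A2 had at most 4 reads, and the summed RPKM was 37.0 in deficient cells against 36.5 in sgVector cells. Single fibroblast markers differed more than the sum, with PDGFRA at 22.1 RPKM in deficient cells against 10.5 RPKM in sgVector cells and COL1A1 at 7.32 RPKM in deficient cells against 18.6 RPKM in sgVector cells. The part of such cells in the results was not tested.

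All 5 receptor genes had higher values in deficient cells, IL11RA within its counting error, and the ligand genes differed in both directions. Genes are called measured when the mean of both libraries is at least 1 RPKM (reads on a gene, scaled to its length in kilobases and to 1000000 reads in all), and a difference is a log2 ratio of (RPKM + 0.1), deficient over sgVector. A gene said to stand at a value has that log2 ratio. In bulk RNA a different share of expressing cells and a different level per cell cannot be told apart. All 5 receptors were measured, with ratios between 0.25 and 0.91 and a median of 0.31. Of the 5 ligands 3 were measured, with ratios between -1.11 and 0.27 and a median of 0.06. The median of all 13552 measured genes was -0.05, and 44.5% of them were above 0. At least 2-fold higher were 0 of the 8 measured members, where 3.03% of all measured genes and 2.10% of the 10576 protein-coding ones were. At least 2-fold lower was 1, LIF, where 4.69% of all measured genes and 2.07% of the protein-coding ones were. At least 1.5-fold higher were 2 of 8, IL6ST and LIFR, where 8.29% of all measured genes were. At least 1.5-fold lower was LIF alone, where 12.6% of all measured genes were.

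Per unit of length, receptor transcripts outnumbered ligand transcripts in both libraries. The 5 receptors summed to 153.9 RPKM in deficient cells and 100.8 RPKM in sgVector cells, a ratio of 1.53. The 5 ligands summed to 43.4 RPKM in deficient cells and 38.6 RPKM in sgVector cells, a ratio of 1.13. The summed receptor level was thus 3.54 times the summed ligand level in deficient cells and 2.61 times in sgVector cells. IL6ST carried much of this, and the other 4 receptors together stood at 77.2 RPKM in deficient cells and 60.1 RPKM in sgVector cells, a ratio of 1.28.

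**Figure D1:**
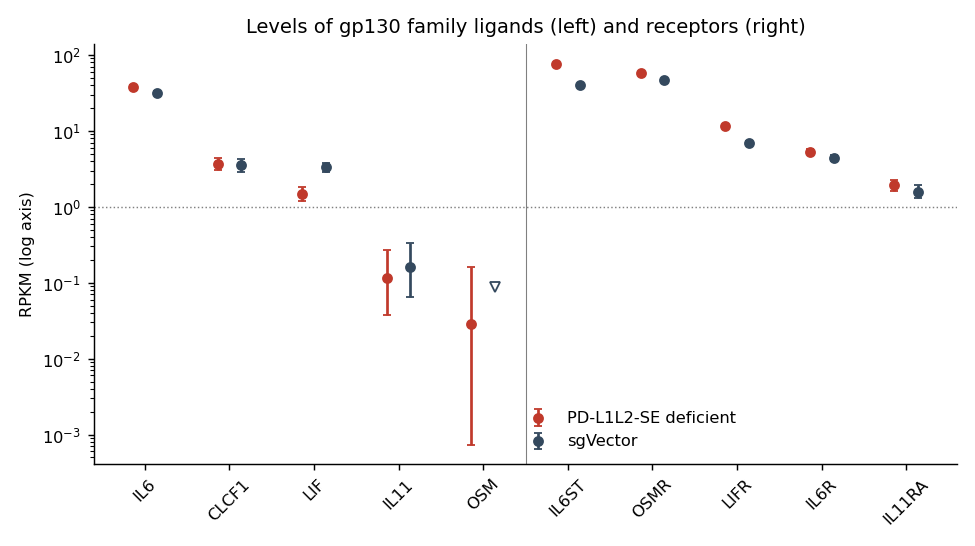
RPKM on a log axis for each gene in the PD-L1L2-SE deficient library (red) and the sgVector library (dark blue), 1 library each, with 95% exact Poisson intervals of the reads, ligands left of the vertical line and receptors right of it. IL6ST has 76.7 RPKM in deficient cells against 40.8 RPKM in sgVector cells, and LIF 1.48 RPKM in deficient cells against 3.30 RPKM in sgVector cells. The open triangle marks OSM in sgVector cells, which had 0 reads, at the level 3 reads would give, and the dotted line marks 1 RPKM.

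Among the ligands, IL6, which encodes the founding cytokine of the family, was by far the most abundant. It had 38.1 RPKM (95% interval 36.1 to 40.3) from 1293 reads in deficient cells and 31.6 RPKM (29.7 to 33.5) from 1059 reads in sgVector cells. The counting intervals did not overlap, and IL6 was 1.21-fold higher (1.11 to 1.31). It made up 87.8% of the summed ligand RPKM in deficient cells and 81.9% in sgVector cells. In hg19, the build of the deposited coordinates, IL6 (ENSG00000136244) lies on chromosome 7 from 22765503 to 22771621 on the plus strand in 5 exon blocks. The antisense gene IL6-AS1 shares 20.7% of the exon bases of IL6 and had 8 reads in deficient cells against 11 in sgVector cells.

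LIF, which encodes leukaemia inhibitory factor, went the other way. It had 1.48 RPKM (1.20 to 1.80) from 96 reads in deficient cells and 3.30 RPKM (2.87 to 3.77) from 212 reads in sgVector cells, with counting intervals that did not overlap. It was 2.23-fold lower (1.75 to 2.87), a log2 ratio of -1.11. Of 10576 measured protein-coding genes, 169 had a lower ratio. The 2-fold call depended on the setting, since a pseudocount of 1 RPKM gave -0.79 and a correction for GC content and length gave -0.97. LIF (ENSG00000128342) lies on chromosome 22 from 30636436 to 30642840 on the minus strand.

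CLCF1, which encodes a cytokine that signals through the CNTF receptor, differed by less than its counting error. It had 3.68 RPKM (3.05 to 4.40) from 119 reads in deficient cells and 3.53 RPKM (2.91 to 4.24) from 113 reads in sgVector cells, a ratio of 1.04 (0.80 to 1.36). CNTFR, which encodes the ligand-binding chain of that receptor, had 1 read in deficient cells against 2 in sgVector cells, which is at the limit of detection. CLCF1 (ENSG00000175505) lies on chromosome 11 from 67131639 to 67141648 on the minus strand.

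IL11 and OSM were not measurable at this depth. IL11 had 5 reads in deficient cells and 7 in sgVector cells, at 0.114 RPKM in deficient cells against 0.162 RPKM in sgVector cells, and the interval of their ratio ran from 0.18 to 2.59. OSM, mostly known as a product of leukocytes, had 1 read in deficient cells and 0 in sgVector cells. A count of 0 allows up to 3 reads, or 0.0876 RPKM for OSM in sgVector cells. IL11 (ENSG00000095752) lies on chromosome 19 from 55875757 to 55881831, and OSM (ENSG00000099985) on chromosome 22 from 30658818 to 30662829.

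IL6ST had the largest difference of the receptors. It had 76.7 RPKM (75.4 to 78.2) from 11682 reads in deficient cells and 40.8 RPKM (39.7 to 41.8) from 6137 reads in sgVector cells. It was 1.88-fold higher (1.83 to 1.94), a log2 ratio of 0.91, and 278 of 10576 measured protein-coding genes had a higher ratio. By level it ranked 351 among 19853 protein-coding genes in deficient cells and 858 in sgVector cells. IL6ST (ENSG00000134352) lies on chromosome 5 from 55230923 to 55290821 on the minus strand in 19 exon blocks. No overlapping gene that shares its exons had a read in either library.

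LIFR and OSMR, which encode the chains that pair with gp130, lie 237504 bases apart on chromosome 5, LIFR from 38475065 to 38608456 and OSMR from 38845960 to 38945698. LIFR had 11.6 RPKM (11.2 to 12.1) from 2262 reads in deficient cells and 6.91 RPKM (6.54 to 7.29) from 1328 reads in sgVector cells. It was 1.69-fold higher (1.57 to 1.80). OSMR had 58.3 RPKM (56.9 to 59.7) from 6854 reads in deficient cells and 47.2 RPKM (45.9 to 48.4) from 5482 reads in sgVector cells. It was 1.24-fold higher (1.19 to 1.28), a smaller ratio than that of LIFR with intervals that did not overlap. OSMR shares 3.19% of its exon bases with RICTOR on the other strand, which had 2420 reads in deficient cells against 2086 in sgVector cells. The sources used here do not say whether counting used strand.

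The receptor chains that bind IL-6 and IL-11 directly were scarcer. IL6R had 5.33 RPKM (4.90 to 5.78) from 563 reads in deficient cells and 4.45 RPKM (4.05 to 4.87) from 465 reads in sgVector cells, 1.20-fold higher (1.06 to 1.36). IL11RA had 1.92 RPKM (1.61 to 2.27) from 134 reads in deficient cells and 1.59 RPKM (1.31 to 1.91) from 110 reads in sgVector cells. The IL11RA ratio of 1.21 (0.93 to 1.56) lay within its counting error. IL11RA shares 7.82% of its exon bases with GALT on the same strand, so its reads are uncertain. IL6R (ENSG00000160712) lies on chromosome 1 from 154377669 to 154441926 and IL11RA (ENSG00000137070) on chromosome 9 from 34650699 to 34661889, both on the plus strand.

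These unequal differences changed the make-up of the receptor transcripts. IL6ST took 49.9% of the summed receptor RPKM in deficient cells and 40.4% in sgVector cells, and OSMR took 37.9% in deficient cells and 46.8% in sgVector cells. OSMR was thus the most abundant receptor transcript in sgVector cells and IL6ST in deficient cells. The IL6ST level was 14.4 times that of IL6R in deficient cells and 9.17 times in sgVector cells, and 6.59 times that of LIFR in deficient cells against 5.90 times in sgVector cells.

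**Figure D2:**
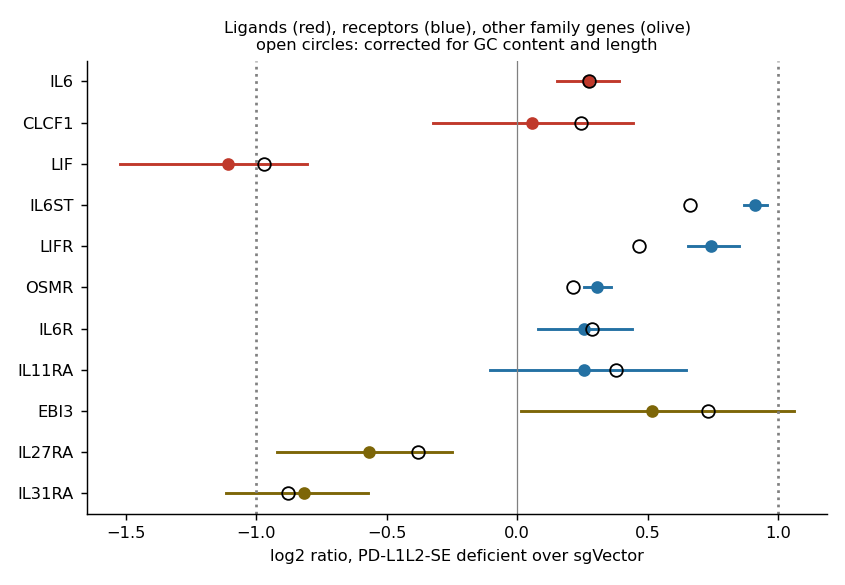
Log2 ratio (RPKM + 0.1), PD-L1L2-SE deficient over sgVector, of the 8 measured members and of 3 other measured family genes, with lines for the 95% counting interval of the read ratio and dotted lines at 2-fold. LIF lies at -1.11 and IL6ST at 0.91, and after correction for GC content and length (open circles) they lie at -0.97 and 0.66.

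The ratios of IL6ST and LIFR were smaller after a correction for base composition. In this pair of libraries GC-poor genes stood higher. Protein-coding genes with a GC content of 31.3 to 40.7% had a median log2 ratio of 0.14, and those of 51.3 to 58.0% a median of -0.13. The longest transcripts of IL6ST and LIFR have a GC content of 36.6% and 36.2%, whereas IL6R, IL11RA, CLCF1 and LIF lie between 51.8 and 57.1%. With the trends on GC content and length removed, the log2 ratio was 0.66 for IL6ST, 0.47 for LIFR and 0.21 for OSMR, and the median of the receptors was 0.38. LIFR then no longer passed 1.5-fold, and IL6ST still did.

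**Figure D3:**
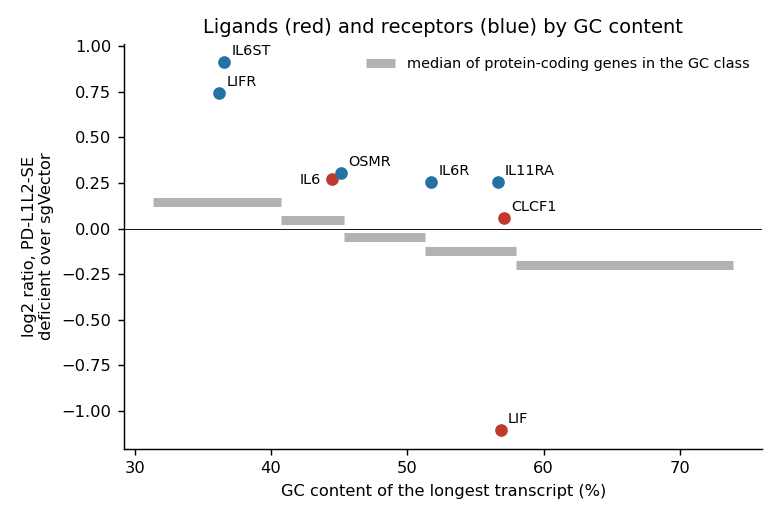
Log2 ratio of each measured member against the GC content of its longest transcript, with grey bars for the median of 5 equal classes of protein-coding genes. The bars descend with GC content and all 5 receptors lie above the bar of their class, with IL6ST and LIFR at 36.6% and 36.2% GC and LIF far below its bar at 56.9%.

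Genes beside the members were read for comparison, since values of neighbouring genes can move together. Around LIF, all 24 measured protein-coding genes within 1 Mb had a ratio below 0, with a median of -0.35. Only SEC14L2, a lipid-binding protein gene, was also at least 2-fold lower among them, at -1.07, which was -0.99 after the GC and length correction. Among all measured protein-coding genes 2.07% were at least 2-fold lower. On chromosome 22 as a whole the median of 241 genes was -0.30, and 45 of them were above 0. LIF lay 0.76 below the median of its neighbours. Its nearest neighbour OSM, 15978 bases away, and HORMAD2 on the other side had 1 read each in deficient cells and 0 in sgVector cells. The part of the region or chromosome in the LIF value was not tested.

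Around IL6ST the neighbours differed among themselves. The median of 11 measured genes within 1 Mb was 0.04 and IL6ST lay 0.88 above it. The next gene, 12242 bases away, is IL31RA, another gp130-like receptor gene, whose product pairs with OSMR to bind IL-31. IL31RA had 2.36 RPKM from 177 reads in deficient cells and 4.23 RPKM from 314 reads in sgVector cells, 1.79-fold lower (1.49 to 2.17). The adjacent receptor genes therefore differed in opposite directions, both beyond counting error. Within 1 Mb only MAP3K1, a kinase gene, and SETD9 were also above 0.5, at 0.80 and 0.61. The median of 504 genes on chromosome 5 was 0.12.

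Around LIFR and OSMR the measured neighbours within 1 Mb were also above 0. Of 5 genes within 1 Mb of LIFR all 5 were, with a median of 0.20, and of 34 genes within 5 Mb 24 were, with a median of 0.17. On chromosome 5 as a whole 320 of 504 genes were above 0. LIFR lay 0.55 above the median of its neighbours within 1 Mb. OSMR lay 0.04 above the median of 0.27 of its own 4 neighbours, of which LIFR is 1. The IL-7 receptor gene IL7R was the only measured gene within 5 Mb at least 2-fold higher, at 1.07, which was 0.93 after the GC and length correction. Among all measured protein-coding genes 2.10% were at least 2-fold higher. For IL6 the median of 9 neighbours within 1 Mb was -0.19, for IL6R that of 51 was -0.10 and for IL11RA that of 24 was -0.25, and all 3 genes lay above these medians. CLCF1 lay below its own, 0.10 over 40 genes. Neighbours were taken in order of start coordinate, which can pass over an overlapping gene. Those that were measured stood at -0.19 for IL6 (TOMM7), 0.12 and 0.31 for IL6R (ATP8B2 and UBE2Q1) and 0.32 for CLCF1 (PPP1CA). For LIFR and OSMR they stood at 0.18 (EGFLAM) and 0.20 (RICTOR). RAD9A overlaps CLCF1 on the other strand without shared exon bases, and had 402 reads in deficient cells against 500 in sgVector cells. GALT, which overlaps IL11RA, had 231 reads in deficient cells against 273 in sgVector cells. LIFR and OSMR are also nearest neighbours of each other, as are LIF and OSM. The nearest genes that follow were below 1 RPKM. STEAP1B beside IL6 had 14 reads in deficient cells and 16 in sgVector cells, and ANKRD55 beside IL6ST had 7 in deficient cells and 6 in sgVector cells. CASTOR1 beside OSM had 14 reads in deficient cells and 25 in sgVector cells. COX6B2 beside IL11 had 54 in deficient cells and 37 in sgVector cells, and TMEM190 on its other side had 0 in deficient cells and 1 in sgVector cells. The genes without a symbol that come next to CLCF1 and IL11RA in order of start had 1 read each in deficient cells and 0 in sgVector cells.

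**Figure D4:**
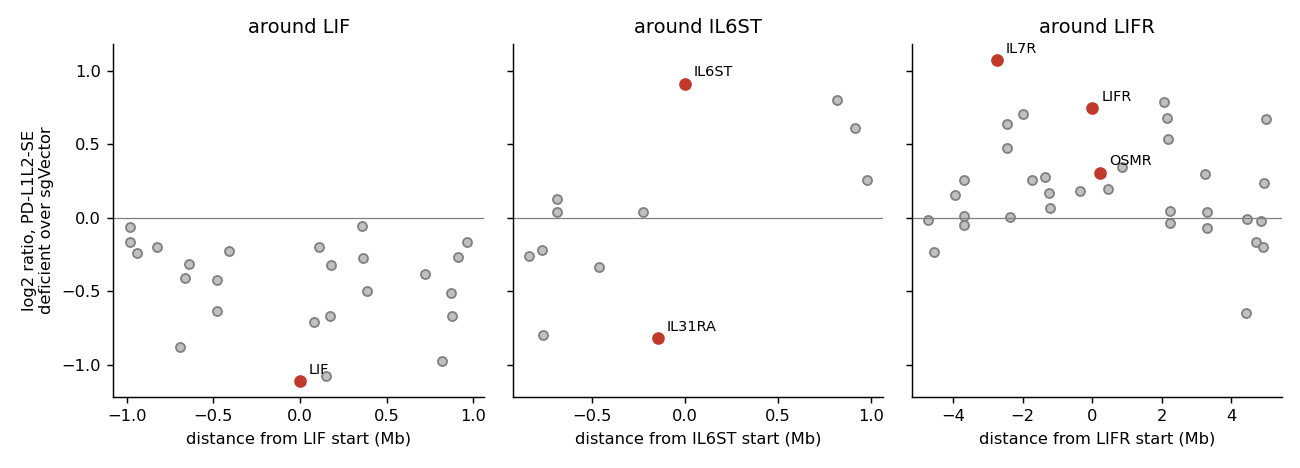
Log2 ratio, PD-L1L2-SE deficient over sgVector, of measured protein-coding genes against the distance of their start from that of LIF, IL6ST or LIFR in Mb (1 point per gene, named receptors and ligands in red). All points around LIF lie below 0, IL6ST and IL31RA lie on opposite sides of 0, and most points around LIFR lie above 0.

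Other genes of the family were scarce. Of 9 further ligand and receptor genes 3 were measured. EBI3, which encodes a subunit of IL-27 and IL-35, had 3.76 RPKM from 79 reads in deficient cells and 2.60 RPKM from 54 reads in sgVector cells, 1.45-fold higher (1.01 to 2.09). IL27RA, the IL-27 receptor chain gene that pairs with gp130, had 2.60 RPKM in deficient cells and 3.90 RPKM in sgVector cells, a log2 ratio of -0.57 (counting interval 1.19-fold to 1.90-fold lower). CNTF had 17 reads in deficient cells and 25 in sgVector cells, CTF1 had 1 read in each, and IL27 and IL31 had 0 in both.

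Of the genes that carry the gp130 signal inside the cell 0 of 12 measured ones passed 2-fold. Their median log2 ratio was 0.17, with 11 above 0, where 44.5% of all measured genes were above 0. At least 2-fold higher were 3.03% of all measured genes, and 4.69% were lower by as much. SHC1, an adaptor gene of the MAP kinase branch, stood at 0.56 and STAT5B at 0.41. STAT3 itself had 52.9 RPKM in deficient cells and 44.2 RPKM in sgVector cells, a log2 ratio of 0.26. JAK1, the main kinase bound to gp130, had 27.3 RPKM in deficient cells and 26.5 RPKM in sgVector cells, and TYK2 was lowest at -0.26.

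Inhibitors of the pathway differed in both directions, with a median of 0.02 over 8 measured genes. SOCS3, the feedback inhibitor that binds gp130, had 10.8 RPKM from 482 reads in deficient cells and 9.16 RPKM from 406 reads in sgVector cells, a log2 ratio of 0.23. SOCS1 alone passed 2-fold, where 3.03% of all measured genes were at least 2-fold higher and 4.69% lower. It had 1.77 RPKM in deficient cells and 4.47 RPKM in sgVector cells. Its log2 ratio of -1.29 was -0.98 after the GC and length correction. PIAS1 and PTPN2 were highest, at 0.51 and 0.38, and PIAS3 stood at -0.17.

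Known STAT3 target genes had a median of 0.24, with 16 of 26 above 0, 2 at least 2-fold higher and 0 lower, where 44.5% of all measured genes were above 0, 3.03% at least 2-fold higher and 4.69% lower. FOS had 9.05 RPKM from 480 reads in deficient cells and 1.85 RPKM from 97 reads in sgVector cells, 4.90-fold higher (3.93 to 6.15). IRF1, which encodes a transcription factor of the interferon response, had 13.3 RPKM in deficient cells and 6.57 RPKM in sgVector cells, 2.02-fold higher (1.86 to 2.20). BCL3 and VEGFA were lowest, at -0.34 and -0.32. OSMR and STAT3 are themselves in this list.

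Acute-phase genes, which IL-6 is known to induce in liver, were represented by 6 measured genes out of 17, with a median of 0.53, or 0.33 with a floor of 5 RPKM. SAA1 had 977 RPKM in deficient cells and 592 RPKM in sgVector cells, and its close paralog SAA2 109 RPKM in deficient cells and 63.4 RPKM in sgVector cells, with log2 ratios of 0.72 and 0.79. Reads of the SAA genes are uncertain because of their likeness. ORM1 passed 2-fold with 71 reads in deficient cells against 2 in sgVector cells, where it was below 1 RPKM. SERPINA1 was lowest at -0.30. Among all measured genes, 3.03% were at least 2-fold higher and 4.69% lower. CRP, HP, FGA and FGB had at most 4 reads in either library. Also below 1 RPKM, SERPINA3 had 15 reads in deficient cells against 0 in sgVector cells, ORM2 10 against 2 and HAMP 5 against 0. In the same order CP had 8 against 7, LBP 5 against 4, FGG 1 against 1 and A2M 0 against 1.

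Regulators of IL6 and LIF transcripts had a median of 0.14 over 15 measured genes. FOS passed 2-fold upward and FOSL1, another AP-1 subunit gene, downward, where 3.03% of all measured genes were higher and 4.69% lower by as much. FOSL1 had 34.2 RPKM in deficient cells and 78.3 RPKM in sgVector cells. Its log2 ratio of -1.19 was -0.98 after the GC and length correction. ZC3H12A, which encodes the RNase Regnase-1 that degrades IL6 mRNA, had 131 RPKM in deficient cells and 71.1 RPKM in sgVector cells, a log2 ratio of 0.88. CEBPB, which encodes a C/EBP factor, had 262 RPKM in deficient cells and 158 RPKM in sgVector cells, a log2 ratio of 0.73. ATF4 stood at -0.42. The NF-kB subunit genes RELB, NFKB1, RELA and NFKB2 stood at 0.20, 0.14, -0.06 and -0.37, and REL was below a mean of 1 RPKM.

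Genes often expressed with IL6, most of them cytokine genes, spread far more widely than IL6 did. Of 11 measured, 3 were at least 2-fold higher, CCL2, CXCL1 and TNFAIP3 at 3.34, 1.74 and 1.10. At least 2-fold lower were 2, CSF3 and CSF2 at -3.87 and -2.23. Among all measured genes 3.03% were higher and 4.69% lower by as much. CCL2 had 122 reads in deficient cells against 9 in sgVector cells, and CXCL1 had 49 against 13. Both were below 1 RPKM in sgVector cells and counted as measured only through the deficient library. TNFAIP3 encodes A20, an inhibitor of NF-kB inside the cell and not a cytokine. The median of the 11 was 0.24, which turned to -0.59 with a floor of 5 RPKM. CXCL8, the most abundant, had 201 RPKM in deficient cells and 325 RPKM in sgVector cells. Of 7 genes that shed, fold or sort the receptors 0 passed 2-fold, with CANX at 0.86 and the sheddase gene ADAM10 at 0.45 highest and RHBDF1 at -0.52 lowest.

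**Figure D5:**
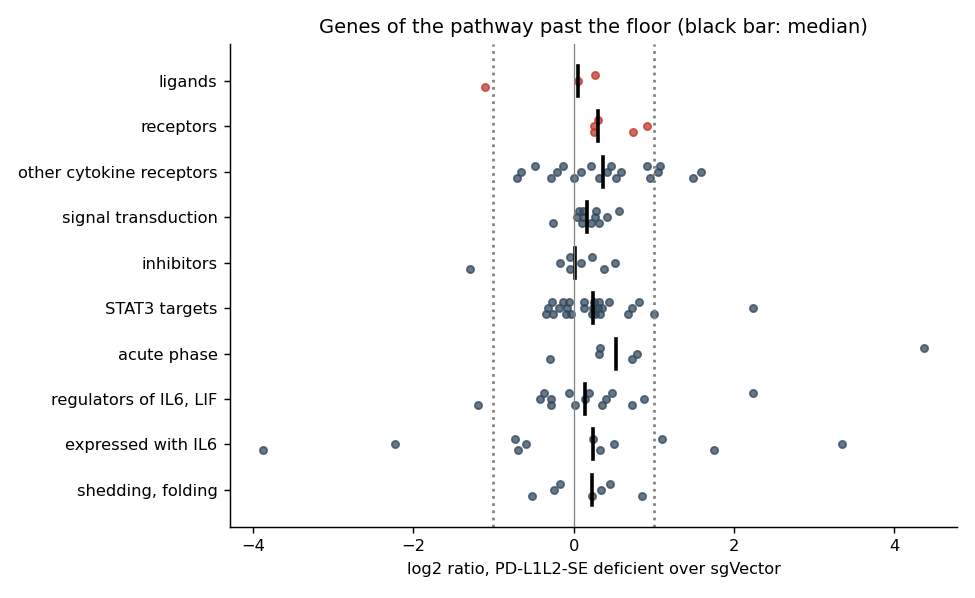
Log2 ratio, PD-L1L2-SE deficient over sgVector, of every measured gene in each list (1 point per gene, vertical offset for legibility only), with black bars for the list medians and dotted lines at 2-fold. The receptor points all lie between 0.25 and 0.91, while genes often expressed with IL6 reach from -3.87 to 3.34. The upper end is CCL2, which had 9 reads in sgVector cells.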

How the data were processed

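RNA sequencing of 2 SUM-159 samples was used, 1 library each, labelled PD-L1L2-SE deficient and sgVector. The submitters' processing notes name Subread, featureCounts 1.6.4 and the builds GRCh37 and hg19. Annotation release and strand setting: not given in the sources used here. The authors deposited 1 RPKM column per library, beside the exons and summed length of each gene. Multiplied by length, the values were whole multiples of 1 read (100% of them, tolerance 1e-06), and these reads served for intervals only. No count test was run, since no group has replicates.

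Left out were 41 rows for chromosome Y copies of pseudoautosomal genes. Symbols came from a gene name table (56373 rows matched), gene types and GC content from GENCODE release 29, of which no coordinates were used. Log2 ratios of (RPKM + 0.1) understate the change of low genes. Read ratios have 95% Clopper-Pearson intervals and levels exact Poisson intervals. Both cover counting error only and no variation between libraries. They take each read as separate, although PCR copies are not separate molecules.

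Members and lists were chosen with earlier results of these data known. All members were named, further family genes with a read, and in each pathway list the genes past 2-fold and the 2 highest and 2 lowest. STAT3, SOCS3, SAA1, CEBPB, CXCL8 and the NF-kB subunit genes were added for their role or level, and some genes with few reads as examples of low values. Some genes of the lists are counted but not reported here by name. Genes of the 1 Mb windows, named after their values were seen, add to the nearest neighbours. GC and length trends were removed by lowess (share 0.3) on protein-coding genes. Trimmed mean of M values (TMM) scaling trimmed 30% of ratios and 5% of levels at each end. The 2-fold call, the read-ratio intervals and TMM were tested on simulated reads that held counting error only. The GC and length correction was not tested in this way. Software was Python 3.11.15 with scipy 1.17.1, numpy 2.4.6, matplotlib 3.10.9, pandas 2.3.3 and statsmodels 0.14.6.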

Additional observations from a re-analysis of the deposited data

How the results depend on the processing

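No paired analysis was possible because each group has 1 library. Of 72 log2 ratios of measured members under alternatives, 61 stayed within their counting interval, and 1 changed sign, CLCF1 relative to its neighbours (-0.05). The comparison with neighbours within 1 Mb was chosen after seeing the data, and gave 0.46 for IL6, -0.76 for LIF, 0.55 for LIFR and 0.036 for OSMR. LIF was -0.79 with a pseudocount of 1 RPKM, which shrinks low genes. IL6ST was 0.99 with TMM, 0.96 with centring and 0.66 with the GC and length correction, LIFR 0.47 with that correction, and OSMR 0.38 with TMM and 0.21 with the correction. The count of ligands at least 2-fold lower, 1, was 0 with a pseudocount of 1, the correction, a floor of 5 RPKM or the whole interval past 2-fold. The receptor median was 0.74 with a floor of 5 RPKM, which keeps IL6ST, LIFR and OSMR, and 2 receptors were higher at 1.5-fold. Against 411 genes higher and 636 lower, a pseudocount of 1 gave 215 and 344, floors of 5 and 0.5 RPKM gave 115 and 152 or 642 and 1138, and no floor gave 2575 and 3711. The 1.5-fold threshold gave 1123 and 1703, intervals wholly past 2-fold 165 and 160, and protein-coding genes 222 and 219. Each follows from how many genes enter or pass. With a pseudocount of 1 CD274 was -2.27 and PDCD1LG2 -1.53. The median of genes often expressed with IL6 was -0.59 with a floor of 5 RPKM, and that of shedding and folding genes -0.21. Depth limits IL11 and OSM, with at most 7 reads.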

Other observations

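Receptor genes for other cytokines differed in both directions, more of them upward. Of 27 listed 20 were measured, with a median log2 ratio of 0.36, 14 above 0 and 6 below, 4 at least 2-fold higher and 0 lower, where 3.03% and 4.69% of all measured genes were. The 4 were IL13RA2, a decoy receptor for IL-13, LEPR, the leptin receptor gene, IL7R, which was 0.93 after the GC and length correction, and CRLF2, the receptor gene for TSLP. IL13RA2, with 45 reads in deficient cells against 13 in sgVector cells, and LEPR were below 1 RPKM in sgVector cells. LEPR, whose product is a close relative of gp130, had 2.46 RPKM from 459 reads in deficient cells and 0.81 RPKM from 150 reads in sgVector cells, 3.03-fold higher (2.51 to 3.67). Within this list the 3 genes with ratios nearest to that of IL6ST, over 2 libraries, were IL13RA1 at 0.91, IL18R1 at 0.95 and CRLF2 at 1.05. After the GC and length correction these 3 stood at 0.83, 0.85 and 1.21, and IL6ST at 0.66. IL15RA and IL22RA1 were lowest, at -0.66 and -0.70.

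Within 5 Mb of LIFR lie 2 more receptor genes of the same class below the mean of 1 RPKM, named here after their values were seen. PRLR, the prolactin receptor gene, had 208 reads in deficient cells and 15 in sgVector cells. GHR, the growth hormone receptor gene, had 50 reads in deficient cells and 11 in sgVector cells.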
